A study of Homo sapiens with 24 samples.

Results

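A set of 10 genes that carry cells from G1 into S phase was followed, all of them (10 of 10 listed) present by symbol among the 14114 genes of the deposited expression table: the D-type cyclin genes CCND1 and CCND3, their kinase genes CDK4 and CDK6, the E-type cyclin genes CCNE1 and CCNE2, the phosphatase gene CDC25A, and the activator E2F genes E2F1, E2F2 and E2F3. They were listed by name and not by a cut-off on measured values, but with earlier results of these data known. RNA sequencing was done on 24 libraries from 3 established human triple-negative breast cancer lines, MDA-MB-468, MDA-MB-231 and MDA-MB-157. Each line was given 0.05% DMSO, 1000 nM thalidomide, 1000 nM BETi-211 or 100 nM BETd-246 for 3 h, with 2 libraries in each of the 12 groups. BETi-211 is an inhibitor of the BET bromodomain proteins, which bind acetylated chromatin and promote transcription, and BETd-246 is a degrader of the same proteins. The DMSO and thalidomide libraries together formed the 4 controls of a line, as the series description provides, and each line is a single tumour-derived culture. The series description calls the replicates independent biological ones. Sets of 3 values below run in the order MDA-MB-157, MDA-MB-231, MDA-MB-468.

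In G1, D-type cyclins bind CDK4 or CDK6 and phosphorylate the retinoblastoma protein, which releases E2F transcription factors. The E2Fs then raise genes for DNA replication and also CCNE1, CCNE2 and CDC25A. Cyclin E activates CDK2, and the CDC25A phosphatase removes the inhibitory phosphates from that kinase, so that the loop closes on itself. Overexpression of D- and E-type cyclins is known in breast cancer, and CDK4 and CDK6 are drug targets there. In the GENCODE annotation of GRCh38 4 of the genes that fell with BETd-246 in all 3 lines lie at chr19:29811898-29824308 (CCNE1, plus strand), chr3:48157146-48188402 (CDC25A, minus strand), chr1:23506430-23531220 (E2F2, minus strand) and chr6:20401906-20493715 (E2F3, plus strand).

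E2F-type letters were looked for in the RefSeq promoters of 8 of the 10 genes (GRCh38.p14, 12 windows of 300 bases, from 250 bases before to 50 after the start of transcription). CCND1 and CCNE2 were not analysed here. The motifs searched, on both strands, were TTTGGCGC, TTTCCCGC, TTTGGCGG, TTTCGCGC, TTTGCCGC and TTTCCCGG, and 5.3% of the 35116 promoters of the table held at least 1 of these 6. Of the 8 genes, 4 held one, namely CDC25A, E2F1, E2F2 and E2F3. TTTGGCGC stood in 3 of them, CDC25A, E2F1 and E2F2, against 0.7% of all promoters. The 250 bases before the start of these 3 are printed because they share these letters while the RNA of the 3 genes behaved differently after the compounds, as described further on. The windows lie at chr3:48188418-48188667 for CDC25A, at chr20:33686386-33686635 for E2F1 and at chr1:23531234-23531483 for E2F2, all on the minus strand. Matches are in capitals. E2F1 holds a second one, TTTGCCGC, read on the opposite strand. A match is a description of the letters and not a bound site.
CDC25A: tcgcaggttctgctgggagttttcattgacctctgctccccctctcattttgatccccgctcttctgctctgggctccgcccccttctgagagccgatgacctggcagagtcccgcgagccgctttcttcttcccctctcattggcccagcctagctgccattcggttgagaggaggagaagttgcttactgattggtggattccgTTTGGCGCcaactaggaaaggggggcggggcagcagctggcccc
E2F1: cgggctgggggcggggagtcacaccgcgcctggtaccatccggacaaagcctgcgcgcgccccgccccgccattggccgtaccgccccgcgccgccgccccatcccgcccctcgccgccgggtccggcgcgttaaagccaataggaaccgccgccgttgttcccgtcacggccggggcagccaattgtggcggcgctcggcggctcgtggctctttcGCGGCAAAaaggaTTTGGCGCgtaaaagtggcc
E2F2: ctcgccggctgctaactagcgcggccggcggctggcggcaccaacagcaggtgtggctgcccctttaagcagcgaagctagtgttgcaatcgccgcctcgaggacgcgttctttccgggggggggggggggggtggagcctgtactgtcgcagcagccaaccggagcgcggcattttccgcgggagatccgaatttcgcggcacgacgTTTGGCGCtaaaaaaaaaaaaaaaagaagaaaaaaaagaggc
The match begins 44 bases before the start in CDC25A, 20 in E2F1 and 42 in E2F2. In E2F3 the letters TTTCCCGC were found on the opposite strand of 1 of its 2 windows. The E-box CACGTG, held by 7.3% of all promoters, was found in 3 of the 8 genes, CDK4, CDK6 and E2F3. CDK6 and E2F3 held it in 1 of their 2 windows each. The percentages count single promoter windows, while a gene is counted if any of its windows holds a match, so the units differ. No letters of either kind were found in the windows of CCND3 and CCNE1.

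Values are FPKM, fragments scaled by transcript length and by the fragments mapped in the library, so that levels can be compared between genes. The depth of the libraries was roughly estimated at 42700000 to 63600000 fragments, a figure tied to a depth set beforehand. It came from low values of 5 to 26 genes per library, and fragment counts were not used here. Because of that tie, the estimate cannot show how deep the libraries were. If it held, the thinnest values of the set rested on about 280 fragments for E2F2, 400 for CDC25A and 510 for CCNE1. Replicates correlated at 0.992 to 0.998 across genes on the log2 scale. Of the receptor genes, ESR1 and PGR were not analysed here and ERBB2 lay at 7.17 to 19.5 FPKM. All 8 of 8 listed epithelial genes were measured. Their summed level was 5270 to 6270 FPKM in MDA-MB-468 and, carried mostly by KRT8 and KRT18, 458 to 548 in MDA-MB-157 and 481 to 536 in MDA-MB-231, where the defining genes EPCAM, CDH1, KRT5 and KRT14 were at or below 3.9 FPKM. With BETd-246 the sum was 537 to 548 in MDA-MB-157 and 6060 to 6270 in MDA-MB-468, above all controls of those lines. All 3 of 3 mesenchymal-like genes were measured. Over all libraries VIM lay at 1980 to 2300 FPKM in MDA-MB-157, 816 to 1030 in MDA-MB-231 and 11.6 to 14.1 in MDA-MB-468. CDH2 lay at 21.6 to 26.1, 0.145 to 0.352 and 0 to 0.00555, and ZEB1 at 5.82 to 7.01, 18.9 to 26.7 and 0.048 to 0.11. The endothelial and fibroblast markers were measured for 5 of 8 genes. Their summed level in MDA-MB-157, led by COL3A1 at 342 to 421 FPKM, spanned 471 to 508 FPKM in controls. It was 478 to 482 under BETi-211 and 557 to 574 under BETd-246, and 2.3 to 2.92 FPKM over all MDA-MB-231 libraries or 1.64 to 2.28 over those of MDA-MB-468. The immune markers CD14 and CSF1R, 2 of 6 listed, summed to 54 to 71.8 FPKM in MDA-MB-157, highest with BETd-246 at 68.8 to 71.8, and to 1.5 FPKM or less in the other lines, while PTPRC, CD3E and LYZ, like the endothelial genes PECAM1, VWF and CDH5, were not analysed here. The part of these genes in the changes below was not tested.

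The 3 lines entered the experiment with different G1 gene levels. The D-type cyclins were highest in MDA-MB-231, where CCND1 averaged 187 ± 6.18 FPKM (SD, n = 4 control libraries) against 25.6 ± 0.9 in MDA-MB-157 and 44 ± 2.02 in MDA-MB-468. CCND3 (69 ± 0.49 FPKM) and CDK6 (53 ± 0.936 FPKM) were also highest in MDA-MB-231. MDA-MB-157 was instead the line with the most cyclin E, with CCNE1 at 97.6 ± 1.15 FPKM against 10.8 ± 0.558 in MDA-MB-231 or 21.2 ± 0.569 in MDA-MB-468. MDA-MB-468 had the most E2F2, at 22 ± 0.166 FPKM against 7.98 ± 0.52 in MDA-MB-157 and 3.96 ± 0.102 in MDA-MB-231.

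**Figure D1:**
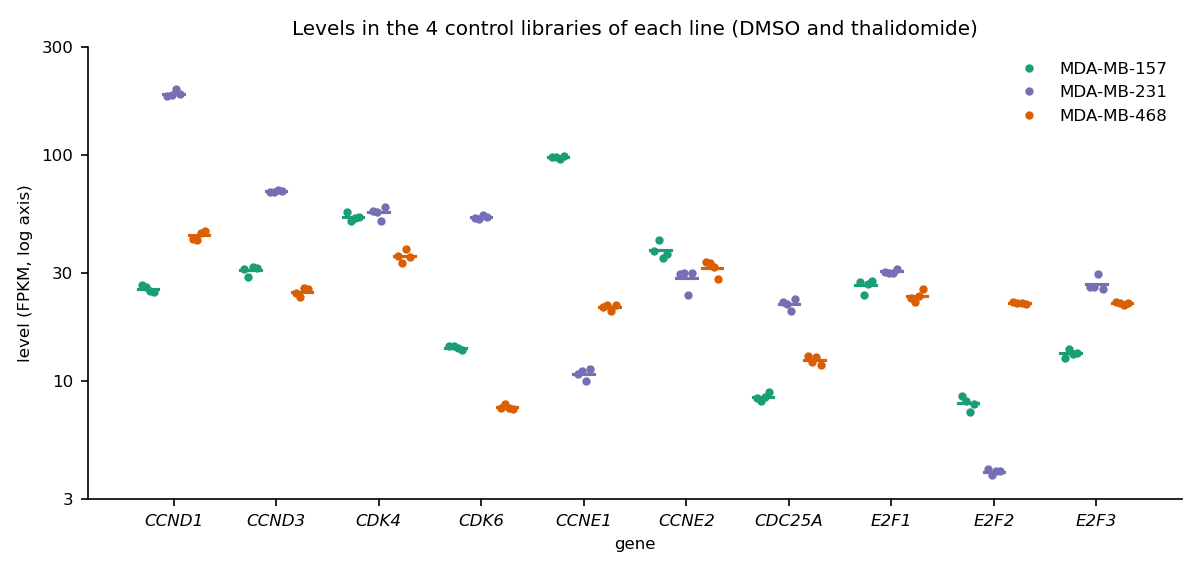
FPKM on a log axis for each of the 10 genes in the 4 control libraries of each line; points are libraries and bars are means. CCND1, CCND3 and CDK6 stand highest in MDA-MB-231, CCNE1 in MDA-MB-157 (97.6 FPKM) and E2F2 in MDA-MB-468 (22 FPKM), while E2F1 and CCNE2 lie close together in all 3 lines.

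Within a line the order of the genes differed accordingly. In MDA-MB-157 CCNE1 came first, followed by CDK4 at 53.2 ± 2.15 FPKM and CCNE2 at 37.8 ± 3.05, and E2F2 came last. In MDA-MB-231 CCND1, CCND3, CDK4 (55.6 ± 3.4 FPKM) and CDK6 took the first 4 places, the last 2 of which lay within 1 SD of each other, and E2F2 was again last. In MDA-MB-468 CCND1 led and CDK6, at 7.66 ± 0.171 FPKM, was last, while E2F2 and E2F3 (22 ± 0.32 FPKM) did not differ.

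Tested between the controls of 2 lines, 9 of the 10 genes differed between MDA-MB-157 and MDA-MB-231, and 10 of 10 in each of the other 2 pairs (limma on log2(FPKM + 1), Benjamini-Hochberg adjusted p below 0.05 over all 14114 genes). This is near the background, since 87.4%, 88% and 86.2% of all genes differed in these pairs (MDA-MB-157 with MDA-MB-231, MDA-MB-157 with MDA-MB-468, MDA-MB-231 with MDA-MB-468). The exception was CDK4, whose log2 difference between MDA-MB-157 and MDA-MB-231 was -0.06 ± 0.05 (SE, 95% interval -0.16 to 0.03, adjusted p = 0.207). The largest differences were those of CCNE1, 3.07 ± 0.04 higher on the log2 scale in MDA-MB-157 than in MDA-MB-231, and of CCND1, with -2.82 ± 0.03 in the same pair. The smallest called ones were that of CCNE2 between MDA-MB-231 and MDA-MB-468, at -0.15 ± 0.06 (adjusted p = 0.0274), and those of E2F1 for MDA-MB-157, at 0.16 ± 0.04 against MDA-MB-468 and -0.2 ± 0.04 against MDA-MB-231.

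Partners of the same pathway set the lines further apart. The retinoblastoma gene RB1, named because the D-type kinases act on its product, averaged 13.3 ± 0.543 and 44.3 ± 0.463 FPKM in the controls of the first 2 lines and 0.249 ± 0.0311 in MDA-MB-468 (SD, n = 4). CDKN2A and CDKN2B, which encode inhibitors of CDK4 and CDK6, were listed at 0 in all MDA-MB-231 libraries. CDKN2A averaged 119 ± 11.1 FPKM in MDA-MB-157 and 86.9 ± 5.73 in MDA-MB-468. These levels were picked out after they had been seen.

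The degrader lowered 5 of the 10 genes in every line, namely CCNE1, CCNE2, CDC25A, E2F2 and E2F3, and the D-type cyclin side of the pathway moved little. With BETd-246, 6, 7 and 8 of the 10 genes were called against the controls, of which 1, 1 and 2 were higher and 5, 6 and 6 lower. Among all genes 51.5%, 48.1% and 53.9% were called, 19%, 14.8% and 20.1% higher and 32.4%, 33.3% and 33.7% lower, so the number of genes called is not particular to the set. The median log2 change of the 10 genes was -0.27, -0.37 and -0.54, beside -0.03, -0.05 and -0.03 for all genes. Mitochondrial genes held 9.65% to 11.98% of the summed FPKM in the BETd-246 libraries of MDA-MB-157 (controls 8.02% to 10.42%), 14.9% to 15.1% in those of MDA-MB-231 (9.79% to 13.99%) and 9.55% to 9.74% in those of MDA-MB-468 (7.18% to 8.33%). The BETi-211 libraries held 10.76% to 12.09%, 13.4% to 14.28% and 8.44% to 8.93%. The part of this share in the changes was not tested.

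The inhibitor also reached most of the set but in a different pattern, with CCND1, CDC25A and E2F2 lower and CCND3, CCNE1 and CCNE2 higher in all 3 lines. With BETi-211, 6, 8 and 9 of the 10 genes were called, 3, 3 and 4 of them higher and 3, 5 and 5 lower, against 45.8%, 50.1% and 53.9% of all genes (14.9%, 18.7% and 21.3% higher, 30.9%, 31.4% and 32.5% lower). The median of the set was -0.04, -0.22 and -0.05 on the log2 scale, beside -0.03, -0.03 and -0.01 for all genes. The comparisons of the 2 compounds with the controls share those controls, and the doses differ (1000 nM BETi-211, 100 nM BETd-246), so each is given with its own values. Fewer cells of a kind and less RNA per cell cannot be told apart in such bulk samples.

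**Figure D2:**
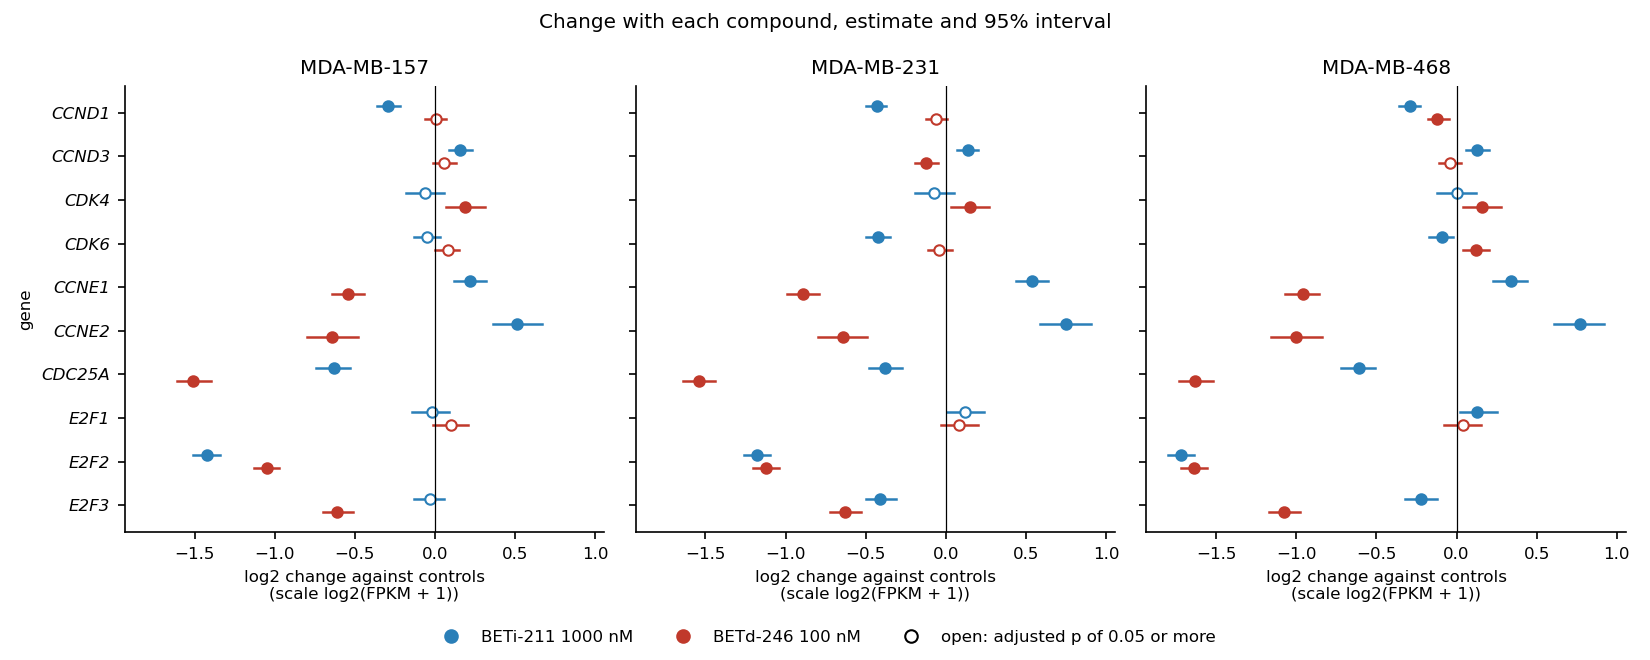
Log2 change of each gene against the 4 controls of its line on the log2(FPKM + 1) scale, with BETi-211 at 1000 nM (blue) and BETd-246 at 100 nM (red), 1 panel per line; points are limma estimates, lines are 95% intervals, and open points have an adjusted p of 0.05 or more. CCNE1 and CCNE2 lie right of 0 with BETi-211 and left of 0 with BETd-246 in each panel, and CDC25A and E2F2 lie left of 0 with both.

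CCND1 encodes cyclin D1, a growth-factor-responsive partner of CDK4 and CDK6. It fell with the inhibitor in each line and hardly moved with the degrader. In MDA-MB-231 it stood at 182 and 184 FPKM with DMSO and 196 and 186 with thalidomide. It was at 138 in both BETi-211 libraries and at 177 and 181 with BETd-246. The BETi-211 libraries lay below all others of the line, while the degrader libraries came close below the controls. In MDA-MB-157 CCND1 was at 26.6, 26.1, 24.9 and 24.8 FPKM in controls, 20.4 and 21.2 with BETi-211 and 25.4 and 26 with BETd-246. In MDA-MB-468 it was at 42.6, 42.1, 45.2 and 46.3, then 34.8 and 36.8, then 39.5 and 41.5.

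The CCND1 changes with BETi-211 were -0.29 ± 0.03, -0.43 ± 0.03 and -0.29 ± 0.03 in log2 units (adjusted p = 1.44e-06, 9.71e-09 and 8.3e-07; ± gives the SE of a log2 change here and below). With BETd-246 they were 0.01 ± 0.03, -0.06 ± 0.03 and -0.12 ± 0.03, of which the last was called (adjusted p = 0.00566). That call was lost against the DMSO libraries only (adjusted p = 0.176), with upper-quartile scaling (0.296) and without the first BETd-246 library of MDA-MB-468 (adjusted p = 0.115), and with median-of-ratios scaling the value was 0.07 (adjusted p = 0.0923).

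CCND3, the gene of cyclin D3, went the other way with the inhibitor. In MDA-MB-231 its control libraries read 68.7, 68.5, 69.6 and 69.2 FPKM, the BETi-211 libraries 74.4 and 77.4, and the BETd-246 libraries 63.3 and 63.4. The 3 sets did not overlap, with BETi-211 above and BETd-246 below the controls. With BETi-211 the log2 gain of CCND3 was 0.16 ± 0.03, 0.14 ± 0.03 and 0.13 ± 0.03 (adjusted p = 0.000645, 0.00259 and 0.00378), a gain of 1.09- to 1.12-fold. With column-total scaling the gain was 0.06 in MDA-MB-231 or 0.05 in MDA-MB-468 (adjusted p = 0.173 and 0.278), and against thalidomide only it was 0.08 in MDA-MB-468 (0.0907). In MDA-MB-231 the call also ended without the second BETi-211 library (adjusted p = 0.0604).

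With BETd-246 the CCND3 change was 0.06 ± 0.03, -0.12 ± 0.03 and -0.04 ± 0.03, called in MDA-MB-231 (adjusted p = 0.00607). Under median-of-ratios scaling the value in MDA-MB-231 was 0.08 (adjusted p = 0.0527). The call was also lost with upper-quartile scaling, and the highest adjusted p over the 19 alternatives was 0.277.

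CDK4 and CDK6 encode the kinases that D-type cyclins activate. CDK4 was the gene of the set that rose with BETd-246 in each line, from 53.2 ± 2.15 to 60.6 ± 0.0339 FPKM in MDA-MB-157, from 55.6 ± 3.4 to 61.7 ± 0.403 in MDA-MB-231 and from 35.6 ± 2.12 to 39.9 ± 1.44 in MDA-MB-468 (SD, n = 4 and 2). Every BETd-246 library lay above every control of its line. The log2 changes were 0.19 ± 0.06, 0.15 ± 0.06 and 0.16 ± 0.06 (adjusted p = 0.0107, 0.0354 and 0.0223).

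The 3 calls of CDK4 ended in 3, 8 and 5 of 19 alternatives, among them those given here. With column-total scaling all 3 ended (0.09, 0.05 and 0.07, adjusted p = 0.101, 0.379 and 0.251). Leaving out either BETd-246 library ended the call in MDA-MB-157 (adjusted p = 0.0601 and 0.0606) and MDA-MB-231 (0.155 and 0.114). In MDA-MB-231 it also ended without either DMSO library (0.0591 and 0.07) or the first thalidomide library (0.108), and in MDA-MB-468 without the first BETd-246 (0.187), second DMSO (0.0731) or second thalidomide library (0.0754). Of the exons annotated over all CDK4 transcripts, 11 reach into the span of TSPAN31 on the opposite strand. Overlap of exons with exons was not measured, and the library kit named in the labels does not mark strand. TSPAN31 changed by 0.21 ± 0.07, 0.15 ± 0.07 and 0.15 ± 0.07 with BETd-246 (adjusted p = 0.0193, 0.104 and 0.0797). Where CDK4 and TSPAN31 share bases, reads could have been counted for either. MARCH9, whose span 1 CDK4 exon reaches, changed by -0.33 ± 0.07, -0.38 ± 0.07 and -0.43 ± 0.07 with BETd-246. With BETi-211 CDK4 changed by -0.06 ± 0.06, -0.07 ± 0.06 and 0 ± 0.06 and passed in no line (adjusted p = 0.405, 0.313 and 0.988).

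The clearest change of CDK6 was in MDA-MB-231 with the inhibitor. In MDA-MB-231 it read 52.7, 52, 54.2 and 53.3 FPKM in controls, 40.6 and 38 with BETi-211 and 51.3 and 52.1 with BETd-246. The inhibitor libraries were well below the others, whereas the degrader libraries overlapped the controls. The fall with BETi-211 was -0.42 ± 0.04 on the log2 scale in MDA-MB-231 (adjusted p = 6.55e-08). It was -0.05 ± 0.04 in MDA-MB-157 (adjusted p = 0.315) and -0.09 ± 0.04 in MDA-MB-468 (adjusted p = 0.0384, 7.11 against 7.66 FPKM). The call in MDA-MB-468 ended in 9 of 19 alternatives, among them the thalidomide libraries as the only control (adjusted p = 0.152). With BETd-246 CDK6 changed by 0.08 ± 0.04, -0.04 ± 0.04 and 0.12 ± 0.04, and the value in MDA-MB-468 was called (adjusted p = 0.0129). That call ended in 4 of 19 alternatives, among them column-total scaling and the fit without the second BETd-246 library. The lowest log2 value over these alternatives was 0.03.

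**Figure D3:**
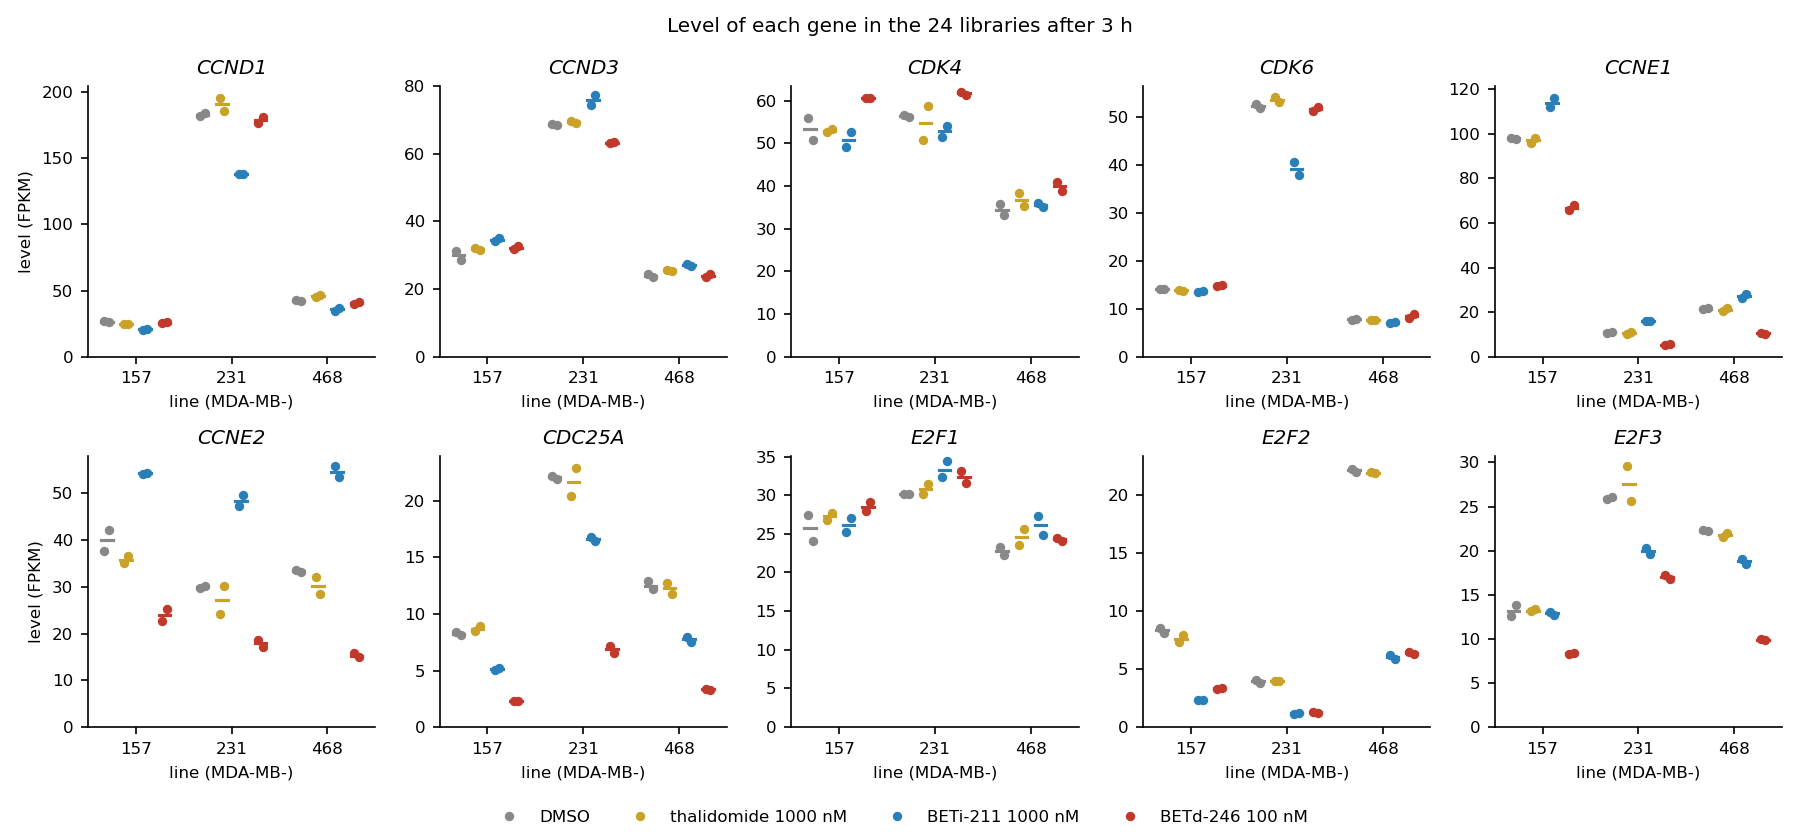
FPKM of the 10 genes in all 24 libraries, on axes from 0; points are libraries, short bars are group means of 2, and colours are the 4 treatments in the 3 lines. The BETi-211 points of CCNE1 and CCNE2 lie above the controls and their BETd-246 points below in each line, and the E2F1 points of all treatments lie together.

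The E-type cyclin genes moved in opposite directions with the 2 compounds, in each line and for both genes. CCNE2 read 37.6, 42.1, 35 and 36.5 FPKM in the controls of MDA-MB-157, 54.2 and 54.3 with BETi-211, and 22.6 and 25.2 with BETd-246. In MDA-MB-231 its controls read 29.8, 30.1, 24.1 and 30.1, the BETi-211 libraries 47.2 and 49.7, and the BETd-246 libraries 18.6 and 17.1. In MDA-MB-468 these were 33.5, 33.1, 32 and 28.4, then 55.8 and 53.5, then 15.8 and 14.9. No library of one kind crossed into the range of another in any line.

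On the log2 scale CCNE2 rose with BETi-211 by 0.51 ± 0.07, 0.75 ± 0.07 and 0.77 ± 0.07 (adjusted p = 2.43e-05, 3.12e-07 and 1.91e-07), or 1.43-, 1.68- and 1.7-fold. With BETd-246 it changed by -0.64 ± 0.07, -0.64 ± 0.07 and -1 ± 0.07 (adjusted p = 2e-06, 1.9e-06 and 6.27e-09), that is 1.56-, 1.56- and 2-fold lower. Of the exons annotated over all CCNE2 transcripts, 3 reach into the span of INTS8 on the other strand. INTS8 changed by -0.02 ± 0.05, 0.21 ± 0.05 and -0.09 ± 0.05 with BETi-211 (adjusted p = 0.801, 0.00269 and 0.129), and by 0 ± 0.05, 0.04 ± 0.05 and -0.05 ± 0.05 with BETd-246.

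CCNE1 did the same over a wide span of starting levels. In MDA-MB-157 it stood at 98.3, 97.7, 95.9 and 98.4 FPKM in controls, 112 and 116 with BETi-211, and 65.7 and 68.1 with BETd-246. In MDA-MB-231, where it is scarce, the values were 10.8, 11.1, 9.98 and 11.2, then 16.2 and 16, then 4.99 and 5.71. In MDA-MB-468 they were 21.2, 21.7, 20.4 and 21.6, then 26.2 and 28, then 10.6 and 10.2. Again the 3 sets were apart in each line.

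The CCNE1 changes with BETi-211 were 0.22 ± 0.05, 0.54 ± 0.05 and 0.34 ± 0.05 (adjusted p = 0.00124, 9.95e-08 and 1.87e-05), the largest rise of 1.46-fold being in MDA-MB-231. With BETd-246 they were -0.54 ± 0.05, -0.89 ± 0.05 and -0.96 ± 0.05 (adjusted p = 9.9e-08, 1.64e-10 and 4.4e-11), or 1.45-, 1.85- and 1.95-fold lower. All 12 calls of CCNE1 and CCNE2 against controls held their direction and their side of the threshold in each of the 19 alternatives run for each.

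CDC25A, whose product activates the kinase partner of cyclin E, was the gene of the set with the largest fall under the degrader in MDA-MB-157 and MDA-MB-231. Only 1.07%, 1.22% and 1.59% of all genes had a lower log2 change with BETd-246. In MDA-MB-157 it read 8.41, 8.11, 8.46 and 8.96 FPKM in controls, 5.03 and 5.19 with BETi-211 and 2.34 and 2.33 with BETd-246. In MDA-MB-231 the values were 22.2, 21.9, 20.4 and 22.9, then 16.8 and 16.5, then 7.15 and 6.59, and in MDA-MB-468 they were 12.9, 12.2, 12.7 and 11.8, then 7.99 and 7.52, then 3.41 and 3.27. The order was the same in the 3 lines, with BETd-246 lowest, BETi-211 between, and no overlap.

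The log2 change of CDC25A was -1.51 ± 0.05, -1.54 ± 0.05 and -1.63 ± 0.05 with BETd-246 (adjusted p = 3.66e-13, 2.65e-13 and 8.2e-14), a fall of 2.84- to 3.09-fold. With BETi-211 it was -0.63 ± 0.05, -0.38 ± 0.05 and -0.61 ± 0.05 (adjusted p = 2.07e-08, 7.01e-06 and 1.87e-08), or 1.55-, 1.3- and 1.53-fold. Since the scale adds 1 FPKM to each value, falls of such low genes are understated.

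The 3 activator E2F genes behaved in 3 ways. E2F2 fell with both compounds, and E2F1 stayed near its control level. E2F3 fell with the degrader in each line and less, or not detectably, with the inhibitor. In MDA-MB-468, the line with the most E2F2, that gene read 22.3, 22, 22 and 21.9 FPKM in controls, 6.18 and 5.84 with BETi-211 and 6.44 and 6.34 with BETd-246. In MDA-MB-157 it read 8.57, 8.13, 7.32 and 7.92, then 2.38 and 2.31, then 3.32 and 3.37, and in MDA-MB-231 4.06, 3.82, 3.97 and 4, then 1.17 and 1.21, then 1.33 and 1.24. All treated libraries lay far below the controls of their line.

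The fall of E2F2 was -1.42 ± 0.04, -1.18 ± 0.04 and -1.72 ± 0.04 on the log2 scale with BETi-211 (adjusted p = 2.37e-13, 8.14e-13 and 1.18e-14). Of all genes 0.135%, 0.716% and 0.184% had a lower change. With BETd-246 the fall was -1.05 ± 0.04, -1.12 ± 0.04 and -1.64 ± 0.04 (adjusted p = 1.56e-12, 6.18e-13 and 6.02e-15).

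E2F3 read 12.6, 13.8, 13.1 and 13.4 FPKM in the controls of MDA-MB-157, 13 and 12.7 with BETi-211 and 8.26 and 8.42 with BETd-246. There the inhibitor libraries overlapped the controls and the degrader libraries did not. In MDA-MB-468 the values were 22.3, 22.2, 21.6 and 22, then 19 and 18.5, then 9.93 and 9.89, and in MDA-MB-231 25.9, 26.1, 29.6 and 25.6, then 20.3 and 19.6, then 17.2 and 16.8. The change with BETd-246 was -0.61 ± 0.05, -0.63 ± 0.05 and -1.08 ± 0.05 (adjusted p = 1e-08, 6.53e-09 and 4.7e-12). With BETi-211 it was -0.03 ± 0.05 (adjusted p = 0.593), -0.41 ± 0.05 (1.39e-06) and -0.22 ± 0.05 (0.000646). The call in MDA-MB-468 ended in 1 of 19 alternatives, quantile normalization (adjusted p = 0.0641).

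E2F1, the founding member of the family, lay between 22.3 and 34.4 FPKM in all 24 libraries. In MDA-MB-157 its controls spanned 24.1 to 27.7 FPKM, BETi-211 read 25.2 and 27, and BETd-246 read 27.9 and 29.1. In MDA-MB-231 the controls spanned 30.2 to 31.4, with 32.3 and 34.4 under BETi-211 and 33.1 and 31.6 under BETd-246, and in MDA-MB-468 22.3 to 25.6, with 27.3 and 24.8 and then 24.5 and 24.1. The treated values overlapped or came just above the controls. The log2 change with BETd-246 was 0.1 ± 0.05, 0.08 ± 0.05 and 0.04 ± 0.05 (adjusted p = 0.122, 0.213 and 0.594), with 95% intervals of -0.01 to 0.21, -0.03 to 0.2 and -0.08 to 0.15. With BETi-211 it was -0.02 ± 0.05, 0.12 ± 0.05 and 0.13 ± 0.05, of which the last was called (adjusted p = 0.0455), a call that 10 of 19 alternatives ended. With median-of-ratios scaling E2F1 was called higher with BETd-246 in all 3 lines (0.26, 0.28 and 0.22, adjusted p = 0.000197, 8.51e-05 and 0.000685). Of the 3 genes whose promoters share TTTGGCGC, CDC25A and E2F2 thus fell with both compounds and E2F1 did not.

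Scaling bears on the small changes. Median-of-ratios scaling moved the median log2 change of all genes with BETd-246 by 0.12, 0.13 and 0.12, quantile normalization by 0.1 in each line, and column totals by -0.07, -0.08 and -0.08. The share of called genes that were higher with BETd-246, 2685 of 7263, 2086 of 6788 and 2843 of 7602 genes in the values as deposited, was 64.7%, 65% and 64.1% under the first and 15.8%, 9.9% and 17.9% under the last. With BETi-211 it was 2107 of 6471, 2641 of 7067 and 3013 of 7601 genes as deposited, 54.4%, 52.9% and 55.4% with upper-quartile scaling and 23.1%, 25.1% and 26.3% with column totals. The falls and rises of CCNE1, CCNE2, CDC25A and E2F2 against controls held their direction and their call under each of the 4 scalings. The direction of CCND1, CCND3 and CDK6 with BETd-246 turned in MDA-MB-231 under median-of-ratios scaling, as did that of CCND1 and CCND3 in MDA-MB-468.

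For thalidomide no change of the set was detectable. With limma 0 of the 10 genes were called against DMSO in each line (26, 0 and 0 of all genes, or 0.184%, 0% and 0%), and 3, 0 and 2 had an unadjusted p below 0.05, against 2093, 766 and 1980 of all genes. The largest difference of the set was -0.15 ± 0.08 for CCNE2, in MDA-MB-157 and again in MDA-MB-231 (adjusted p = 0.433 and 0.804). Without the second thalidomide library of MDA-MB-231 the CCNE2 value was -0.3 and that of E2F3 0.18, both called (adjusted p = 0.0124 and 0.0097). Without the first DMSO library of MDA-MB-157 CCND3 was called (0.14, adjusted p = 0.0365).

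The 2 treatments were then set against each other as given, at 100 nM BETd-246 and 1000 nM BETi-211, so that compound and dose cannot be told apart. Cyclin E and CDC25A were lower in the degrader group and CCND1 and CDK6 higher, in all 3 lines. Of the 10 genes 9, 8 and 7 were called, 4, 3 and 2 of them higher and 5, 5 and 5 lower with BETd-246, beside 46.5%, 41.7% and 43.3% of all genes (24.2%, 17.8% and 20.1% higher, 22.3%, 23.9% and 23.2% lower). The gap for CCNE2 was -1.15 ± 0.08, -1.39 ± 0.08 and -1.77 ± 0.08 on the log2 scale (adjusted p = 1.21e-08, 1.03e-09 and 4.41e-11), or 2.23-, 2.62- and 3.41-fold. CCNE1, with the widest gap in MDA-MB-231, differed by -0.76 ± 0.06, -1.43 ± 0.06 and -1.3 ± 0.06, and CDC25A by -0.87 ± 0.06, -1.16 ± 0.06 and -1.01 ± 0.06.

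E2F3 was also lower with BETd-246, by -0.57 ± 0.05, -0.22 ± 0.05 and -0.86 ± 0.05 (adjusted p = 1.82e-07, 0.0027 and 9.49e-10). The value in MDA-MB-231 was not called with median-of-ratios scaling (-0.11, adjusted p = 0.108). CCND1 was higher by 0.29 ± 0.04, 0.38 ± 0.04 and 0.18 ± 0.04 (adjusted p = 7.36e-06, 3.79e-07 and 0.000989), and CDK6 by 0.12 ± 0.04, 0.39 ± 0.04 and 0.21 ± 0.04 (adjusted p = 0.0254, 1.31e-06 and 0.000654). The first CDK6 value was not called with column-total scaling (0.09, adjusted p = 0.211) or without the first BETi-211 library (0.146) or either BETd-246 library (0.0716 and 0.107). E2F2 was 0.38 ± 0.04 higher with BETd-246 in MDA-MB-157 (adjusted p = 3.69e-06). In the other 2 lines its difference was 0.06 ± 0.04 and 0.08 ± 0.04, with 95% intervals of -0.03 to 0.16 and -0.02 to 0.17. E2F1 passed in no line, with intervals of -0.01 to 0.25, -0.17 to 0.09 and -0.23 to 0.03.

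Lines differed in how strongly single genes responded, and this was tested as the difference of 2 effects. With BETd-246, the fall of E2F3 was steeper in MDA-MB-468 than in either other line, that of E2F2 was steeper there than in MDA-MB-157, and the fall of CCNE1 was shallower in MDA-MB-157. Of the 10 genes 2, 4 and 3 were called in the line pairs, taken in the order given for the controls, beside 11.2%, 13.1% and 13.3% of all genes. The E2F2 effect in MDA-MB-157 was 0.59 ± 0.05 less negative than in MDA-MB-468 (adjusted p = 1.03e-06), and that of E2F3 0.47 ± 0.06 (adjusted p = 7.98e-05). The CCNE1 difference between MDA-MB-157 and MDA-MB-231, 0.35 ± 0.07 (adjusted p = 0.00266), turned to -0.05 with quantile normalization (adjusted p = 0.623). With a pseudocount of 0.1 FPKM the E2F2 difference between MDA-MB-231 and MDA-MB-468 went from 0.52 ± 0.05 to 0.22 and was not called (adjusted p = 0.0574), while that between MDA-MB-157 and MDA-MB-231 went from 0.07 ± 0.05 to 0.32 and was (0.0077). The fall of CDC25A differed in no pair by more than 0.12 ± 0.07 (95% interval -0.03 to 0.26, adjusted p = 0.346).

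With BETi-211, 6, 2 and 5 of the 10 genes were called in the same pairs, beside 16.5%, 21.6% and 21.9% of all genes. MDA-MB-231 stood apart in CDK6, whose fall there was 0.38 ± 0.05 deeper than in MDA-MB-157 and also deeper than in MDA-MB-468 (coded -0.33 ± 0.05, adjusted p = 7.67e-05 and 0.000191). CCND1 also fell further in that line, with differences of 0.15 ± 0.04 and -0.14 ± 0.04 (adjusted p = 0.0357 and 0.0346). CDC25A fell less there, with differences of -0.26 ± 0.07 and 0.24 ± 0.07 (adjusted p = 0.0154 and 0.0198). The CCND1 and CDC25A differences were lost without single libraries, among them the first BETi-211 library of MDA-MB-231, where the 4 adjusted p were 0.0933, 0.0893, 0.0639 and 0.0767. In the pair of MDA-MB-157 and MDA-MB-468 the call of E2F3 (0.19 ± 0.06, adjusted p = 0.0497) lay at the threshold, and no E2F2 difference with BETi-211 stayed called with a pseudocount of 0.1 FPKM. The 3 E2F2 values, -0.24 ± 0.05, 0.29 ± 0.05 and 0.54 ± 0.05, were then -0.07, 0.13 and 0.2 (adjusted p = 0.593, 0.223 and 0.055). In FPKM, E2F2 with BETi-211 was 0.294, 0.3 and 0.273 of its control level.

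The rest of the G1 machinery was read from 3 lists, which had been drawn up with earlier results of these data known. The list of G1 partners and regulators, with 23 of 24 genes measured, held more genes that fell than rose. With BETd-246 3, 3 and 2 rose and 14, 13 and 12 fell, beside 19%, 14.8% and 20.1% of all genes called higher and 32.4%, 33.3% and 33.7% lower. With BETi-211 1, 4 and 2 rose and 14, 11 and 9 fell, beside 14.9%, 18.7% and 21.3% higher and 30.9%, 31.4% and 32.5% lower, so that the 9 of 23 in MDA-MB-468 lie near the background. Its median log2 change with BETd-246 was -0.14, -0.18 and -0.28, beside -0.03, -0.05 and -0.03 for all genes. The members with the largest mean change were the repressor E2F genes E2F6, E2F8 and E2F7, and LIN37, a subunit of the DREAM complex. E2F6 fell from 16 ± 0.261 to 7.03 ± 0.578 FPKM in MDA-MB-157, from 7.75 ± 0.517 to 1.89 ± 0.106 in MDA-MB-231 and from 7.94 ± 0.146 to 1.56 ± 0.0538 in MDA-MB-468 with BETd-246 (SD, n = 4 and 2), a log2 change of -1.08 ± 0.05, -1.6 ± 0.05 and -1.8 ± 0.05.

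E2F8 fell by a log2 value of -0.96 ± 0.05, -1.6 ± 0.05 and -1.45 ± 0.05 with BETd-246 and of -1.04 ± 0.05, -1.07 ± 0.05 and -1.32 ± 0.05 with BETi-211. E2F7 fell with BETd-246 in each line (-0.81 ± 0.05, -1.05 ± 0.05 and -0.95 ± 0.05), whereas with BETi-211 it fell in the first 2 lines and rose by 0.35 ± 0.05 in MDA-MB-468 (adjusted p = 1.2e-05). LIN37 fell with BETd-246 (-0.88 ± 0.09, -0.5 ± 0.09 and -0.75 ± 0.09). Its levels were low, at 3.87, 1.38 and 2.02 FPKM in controls and 1.63, 0.674 and 0.79 with BETd-246. In FPKM it was at 0.421, 0.49 and 0.391 of its control level, so the log2 values understate the fall. With BETi-211 the log2 values of LIN37 were 0.23 ± 0.09, 0.29 ± 0.09 and 0.04 ± 0.09, called in MDA-MB-231 (adjusted p = 0.0171).

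**Figure D4:**
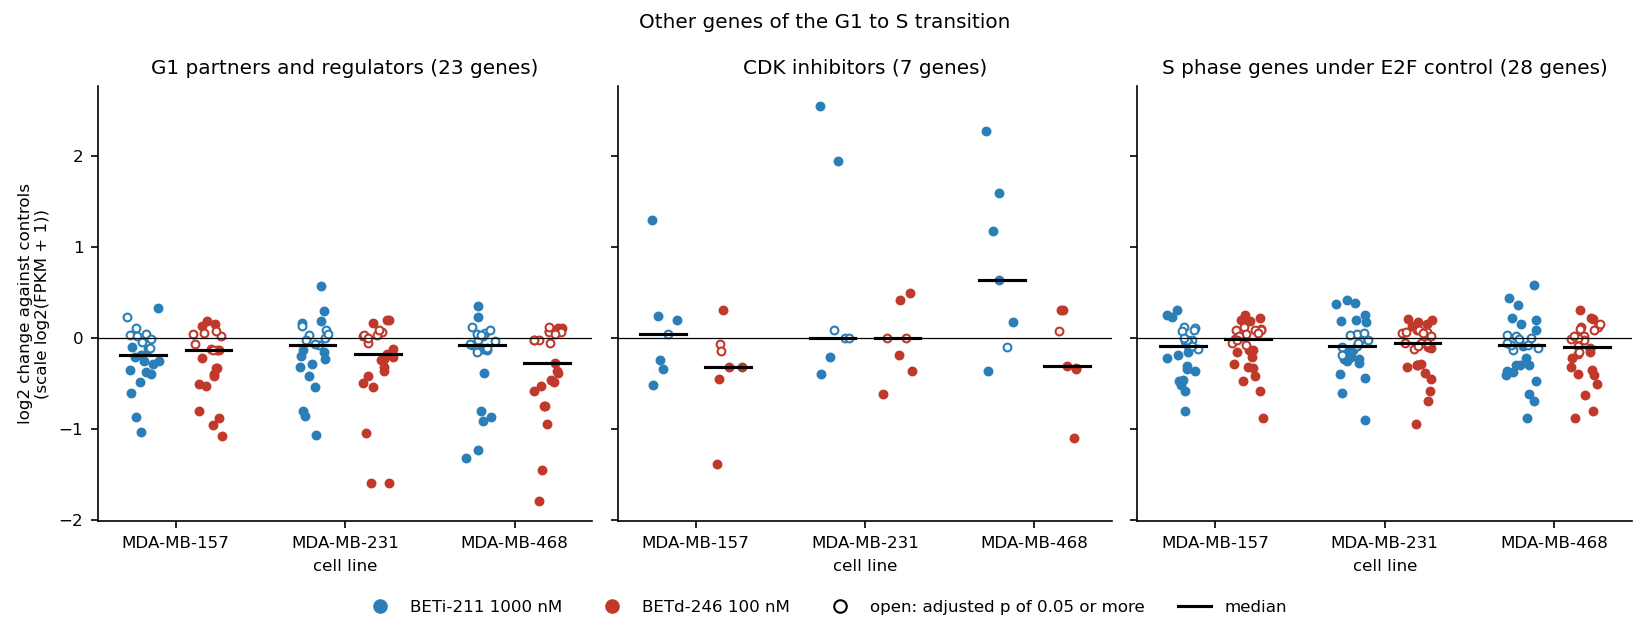
Log2 change against controls, on the log2(FPKM + 1) scale, of every measured gene of 3 lists (23 G1 partners and regulators, 7 CDK inhibitors, 28 S phase genes) in the 3 lines with BETi-211 (blue) and BETd-246 (red); each point is a gene, open points have an adjusted p of 0.05 or more, and bars are medians. CDK inhibitor genes reach a log2 change of 2.55 with BETi-211, while the medians of the S phase genes stay within 0.1 of 0.

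The CDK inhibitor genes, 7 of 7 measured, moved in both directions with each compound. CDKN2A and CDKN2B, listed at 0 in all MDA-MB-231 libraries, could not be called in that line. With BETd-246 1, 2 and 2 rose and 4, 3 and 4 fell, beside 19%, 14.8% and 20.1% of all genes called higher and 32.4%, 33.3% and 33.7% lower. With BETi-211 3, 2 and 5 rose and 3, 2 and 1 fell, beside 14.9%, 18.7% and 21.3% higher and 30.9%, 31.4% and 32.5% lower. CDKN1B, which encodes p27, fell from 10.9 ± 0.59 to 3.55 ± 0.171 FPKM in MDA-MB-157 with BETd-246 and by a log2 value of -1.39 ± 0.07, -0.62 ± 0.07 and -1.1 ± 0.07 over the lines (adjusted p = 7.18e-11, 1.56e-06 and 9.96e-10). With BETi-211 it was -0.34 ± 0.07, -0.21 ± 0.07 and -0.37 ± 0.07 (adjusted p = 0.00069, 0.0212 and 0.000285). The INK4 genes CDKN2C and CDKN2D fell with BETd-246 in each line, by -0.31 to -0.37 and by -0.19 to -0.33. CDKN2B fell by -0.45 ± 0.03 in MDA-MB-157 and -0.34 ± 0.03 in MDA-MB-468 with BETd-246, and rose by 0.24 ± 0.03 and 1.17 ± 0.03 with BETi-211.

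CDKN1A, the gene of p21, was singled out after its values were seen. It rose with BETi-211 from 27 ± 1.67 to 67.2 ± 2.39 FPKM in MDA-MB-157, from 33.6 ± 2.38 to 201 ± 1.21 in MDA-MB-231 and from 17.2 ± 0.975 to 86.6 ± 5.34 in MDA-MB-468. With BETd-246 its log2 change was -0.07 ± 0.06, 0.49 ± 0.06 and 0.07 ± 0.06, called in MDA-MB-231 (adjusted p = 2.94e-06).

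S phase genes under E2F control, 28 of 28 measured, moved in both directions. With BETd-246 5, 5 and 4 rose and 11, 11 and 13 fell, near the 19%, 14.8% and 20.1% higher and 32.4%, 33.3% and 33.7% lower of all genes. The median log2 change was -0.01, -0.06 and -0.1, beside -0.03, -0.05 and -0.03 for all genes. With BETi-211 3, 7 and 7 rose and 12, 12 and 12 fell, beside 14.9%, 18.7% and 21.3% higher and 30.9%, 31.4% and 32.5% lower. The median was -0.09 in each line, beside -0.03, -0.03 and -0.01. DBF4 and CDC7, the 2 subunits of the kinase that fires replication origins, differed between the compounds. DBF4 fell with BETd-246 by -0.88 ± 0.05, -0.95 ± 0.05 and -0.88 ± 0.05, and with BETi-211 its values were -0.12 ± 0.05, -0.1 ± 0.05 and 0 ± 0.05 (adjusted p = 0.0556, 0.115 and 0.985). CDC7 fell with both, by -0.59 ± 0.05, -0.58 ± 0.05 and -0.51 ± 0.05 with BETd-246 and by -0.81 ± 0.05, -0.9 ± 0.05 and -0.88 ± 0.05 with BETi-211.

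The origin licensing factors CDT1 and CDC6 complete the named genes of that list. CDT1 fell with BETd-246 (-0.29 ± 0.07, -0.69 ± 0.07 and -0.81 ± 0.07) and with BETi-211 (-0.52 ± 0.07, -0.4 ± 0.07 and -0.7 ± 0.07). CDC6 fell with BETd-246 (-0.42 ± 0.04, -0.3 ± 0.04 and -0.63 ± 0.04) and rose with BETi-211 (0.23 ± 0.04, 0.25 ± 0.04 and 0.22 ± 0.04), the same 2 directions as CCNE1 and CCNE2.

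For each gene called with BETd-246 in all 3 lines, the 3 genes of the table with the most similar pattern were found by Pearson's r over the 12 group means, after the mean of each line had been taken out. These r describe likeness over points that share lines and controls. Among the genes closest to CCNE2 were NAT1 (r = 0.995) and FAM111B (0.992), and CCNE1 was closest to TRIM26 (0.989), SOX13 (0.988) and ZNF684 (0.986). NAT1, for example, changed by -0.72, -0.65 and -0.85 on the log2 scale with BETd-246 and by 0.6, 0.81 and 0.82 with BETi-211. Within the set, CCNE1 and CCNE2 had an r of 0.96 with each other and CDC25A and E2F3 one of 0.92.

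CDC25A was most like ZBTB39, ZNF398 and BRAP (r = 0.995 each), and ZNF398 changed by -1.36, -1.62 and -1.71 with BETd-246. E2F2 was most like DDX59 (0.998), CCDC12 (0.996) and METTL16 (0.996), genes that went lower with both compounds. E2F3 was most like VEGFA (0.991), ZNF696 (0.988) and ZNF256 (0.983), and VEGFA changed by -0.79, -1.02 and -1.43 with BETd-246 and by 0.01, -0.57 and -0.32 with BETi-211. CDK4 was most like STAT6 (0.982), PIGO (0.976) and VPS52 (0.974).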

How the data were processed

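RNA was sequenced from 24 libraries made with the TruSeq RNA Library Prep v2 kit after separate Ribo-Zero depletion of rRNA, per the labels' protocols. That kit does not mark strand. The genome build GRCh38.p5, the aligner Bowtie 0.12.8 and bcl2fastq 2.17.1.14 are named per the submitters' processing notes. Which program made the values, with which annotation and gene filter, is not given in the sources used here. The values deposited by the authors were taken as FPKM, a unit read from how the values vary with gene length. The values were used as log2(FPKM + 1) in limma 3.58.1 (R 4.3.3), with 1 coefficient for each of 12 groups, a variance trend, 21 comparisons, two-sided tests and Benjamini-Hochberg adjustment over 14114 genes. Genes with an adjusted p below 0.05 are called. The fit was tested on simulated data. Depth, where given, is a rough estimate tied to a depth set beforehand, and the p-values measure the spread between replicate libraries.

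Alternatives were a pseudocount of 0.1 FPKM, genes with a group mean of at least 5 FPKM, 4 scalings, no variance trend, lines fitted alone, a replicate block, each library left out, and DMSO or thalidomide as the only control. Besides the 10 listed genes, the text names the 4 genes of each list with the largest mean change with BETd-246, and the 3 genes most alike in pattern, of which 1 is not reported here. The members and lists were chosen with earlier results of these data known. Gene positions came from GENCODE on GRCh38.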

Additional observations from a re-analysis of the deposited data

Results flagged for a closer look

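Of 60 differences between lines in the effect of a compound on the 10 genes, 22 passed limma's test. Each is the log2 effect in the first line minus that in the second. With BETd-246, MDA-MB-157 differed from MDA-MB-231 by 0.18 for CCND3 (adjusted p = 0.0198) and 0.35 for CCNE1 (0.00266). MDA-MB-157 differed from MDA-MB-468 by 0.42 for CCNE1 (0.000397), 0.36 for CCNE2 (0.0302), 0.59 for E2F2 (1.03e-06) and 0.47 for E2F3 (7.98e-05). MDA-MB-231 differed from MDA-MB-468 by 0.36 for CCNE2 (0.0316), 0.52 for E2F2 (4.28e-06) and 0.45 for E2F3 (0.000123).

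With BETi-211, MDA-MB-157 differed from MDA-MB-231 by 0.15 for CCND1 (adjusted p = 0.0357), 0.38 for CDK6 (7.67e-05), -0.32 for CCNE1 (0.00359), -0.26 for CDC25A (0.0154), -0.24 for E2F2 (0.00503) and 0.37 for E2F3 (0.000653). From MDA-MB-468 it differed by 0.29 for E2F2 (0.000866) and 0.19 for E2F3 (0.0497). The differences of MDA-MB-231 from MDA-MB-468 were -0.14 for CCND1 (0.0346), -0.33 for CDK6 (0.000191), 0.21 for CCNE1 (0.0417), 0.24 for CDC25A (0.0198) and 0.54 for E2F2 (1.87e-06). With a pseudocount of 0.1 FPKM the 3 E2F2 differences with BETi-211 were -0.07, 0.13 and 0.2 and none was called by limma (adjusted p = 0.593, 0.223 and 0.055), and the E2F2 difference with BETd-246 between MDA-MB-231 and MDA-MB-468 was 0.22 (0.0574).

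A library that stood far from the other 3 was found in 3 of 30 sets of 4 control libraries, all in MDA-MB-231. CCNE2 was at 24.1 FPKM in the first thalidomide library, E2F1 at 31.4 in the second and E2F3 at 29.6 in the first. Chance alone marks about 1 set in 20 by this rule.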

How the results depend on the processing

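CCNE1, CCNE2, CDC25A and E2F2 with both compounds, and E2F3 with BETd-246, held their direction and call against controls in all 19 alternatives run for each line. In MDA-MB-157 the count of genes called for BETd-246 was 10 in place of 6 under median-of-ratios and upper-quartile scaling. For the BETd-246 effect in MDA-MB-157 against MDA-MB-231 the count of 2 became 1 with the lines fitted alone, with median-of-ratios scaling and with thalidomide alone as control, and 1 to 2 when libraries were left out. In MDA-MB-231 against MDA-MB-468 it became 6 in place of 3 with quantile normalization. For the BETi-211 effect in MDA-MB-157 against MDA-MB-468 the count of 2 became 1 with column-total, median-of-ratios, quantile and upper-quartile scaling, with no variance trend and with DMSO or thalidomide alone, 0 with a pseudocount of 0.1 FPKM, and 1 to 3 when libraries were left out. In MDA-MB-231 against MDA-MB-468 the count of 5 became 2 with the lines fitted alone, 3 with thalidomide alone and 2 to 6 when libraries were left out. For thalidomide against DMSO the count was 0 to 1 in MDA-MB-157 and 0 to 2 in MDA-MB-231 when libraries were left out. The direction turned with median-of-ratios scaling for BETd-246 in CCND1 (0.14 in MDA-MB-231, 0.07 in MDA-MB-468), CCND3 (0.08 and 0.14) and CDK6 (0.16 in MDA-MB-231), and with quantile normalization in CDK6 with BETi-211 in MDA-MB-468 (0.06) and in the CCNE1 difference in the BETd-246 effect between MDA-MB-157 and MDA-MB-231 (-0.05). The cause was not tested. Deviations of same-numbered replicates correlated at -0.21 to 0.33 over 18 pairs, the highest for DMSO with thalidomide in MDA-MB-468. Such correlations cannot show whether same-numbered samples were handled together. With the replicate block, 6, 7 and 8 genes were called with BETd-246, 6, 8 and 8 with BETi-211, and 8, 8 and 8 between the compounds.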
